A study of Mus musculus with 6 samples.

Results

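Expression of 10 genes of the Yap and Taz pathway was compared between mutant and control intervertebral discs (IVDs) of mice at postnatal day 20 (P20). The genes were taken by name, as members of the pathway. They are Yap1 and Wwtr1 (the gene of Taz), the transcription factor genes Tead1, Tead2 and Tead3, and the target genes Ctgf, Cyr61, Ankrd1, Amotl2 and Axl, and all 10 were found among the 43472 gene symbols of the files. The mutant mice were Col2Cre;Adgrg6 f/f, in which Cre, driven by the promoter of Col2 (type II collagen), deletes a floxed part of both alleles of Adgrg6, an adhesion G protein-coupled receptor gene. The study describes this Cre as recombining throughout the IVD during embryonic development. The controls are Cre (-) littermates in the paper, wild type in the genotype labels and Col2Cre controls in the sample titles, so that whether they carried Cre, or floxed alleles, was not settled by the labels. The strain label is C57B6/J for both groups and no sex is given. Each of the 6 libraries, 3 per genotype, is a pool of thoracic and lumbar discs from 2 to 3 mice, so p-values measure the spread between pools.

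Yap and Taz are transcriptional coactivators that do not bind DNA themselves. Kinases of the Hippo pathway phosphorylate them and keep them in the cytoplasm, whereas stretch, a stiff matrix or loss of those kinases lets them enter the nucleus and bind Tead factors, which recognize short DNA motifs near target genes. Much of this control acts on the protein, so transcript levels of Yap1 and Wwtr1 do not measure the activity of the pathway. Ctgf and Cyr61 encode secreted matricellular proteins of the Ccn family, Ankrd1 a protein of striated muscle that is also induced by Yap, Amotl2 a scaffold that holds Yap outside the nucleus, and Axl a receptor tyrosine kinase of the Tam family. In disc and cartilage, Ctgf is known for its part in matrix production.

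The sequence that Tead factors bind best is GGAATG, which reads CATTCC on the other strand. Both were searched in the RefSeq promoter windows of GRCm38.p6, each from 250 bases before to 50 bases after an annotated transcription start. A window was at hand for 8 of the 10 genes, without Ctgf and Tead1. At least 1 match was found for 7 of these 8, with Tead2 the exception, while 14.7% of 32851 windows and 16.6% of 27025 genes in the same set held a match. A match is a description of the sequence and not a binding site, and Tead occupancy was not measured. The target genes were listed as known targets of the pathway, so their matches are no independent evidence of control by Tead. The windows of the 4 target genes that had one follow in full. They are written 5′ to 3′ on the strand of the gene, with the motif in capitals. The Cyr61 window is chr3:145649936-145650235 on the minus strand and its motif begins 103 bases before the start. The Axl window is chr7:25788684-25788983 on the minus strand, with the motif 233 bases before the start. The Amotl2 window is chr9:102717554-102717853 on the plus strand, with the motif 65 bases before the start. The Ankrd1 window is chr19:36119795-36120094 on the minus strand and holds motifs 210 and 123 bases before the start.
Cyr61: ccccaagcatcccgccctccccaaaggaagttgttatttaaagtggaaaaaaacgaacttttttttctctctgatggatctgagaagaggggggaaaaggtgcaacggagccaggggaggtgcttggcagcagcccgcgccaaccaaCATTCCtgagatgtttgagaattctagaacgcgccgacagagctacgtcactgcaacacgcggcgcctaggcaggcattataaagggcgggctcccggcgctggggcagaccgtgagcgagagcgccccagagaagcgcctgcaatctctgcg
Axl: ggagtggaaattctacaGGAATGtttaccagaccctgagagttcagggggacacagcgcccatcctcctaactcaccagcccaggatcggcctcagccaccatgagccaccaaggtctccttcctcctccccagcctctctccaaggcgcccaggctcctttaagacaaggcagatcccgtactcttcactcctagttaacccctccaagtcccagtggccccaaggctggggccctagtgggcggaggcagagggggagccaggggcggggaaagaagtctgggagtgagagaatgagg
Amotl2: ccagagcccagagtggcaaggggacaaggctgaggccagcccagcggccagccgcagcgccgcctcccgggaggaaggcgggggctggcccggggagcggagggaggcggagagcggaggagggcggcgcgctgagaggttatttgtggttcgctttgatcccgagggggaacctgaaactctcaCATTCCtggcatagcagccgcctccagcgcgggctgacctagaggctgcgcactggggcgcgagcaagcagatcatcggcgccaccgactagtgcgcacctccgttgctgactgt
Ankrd1: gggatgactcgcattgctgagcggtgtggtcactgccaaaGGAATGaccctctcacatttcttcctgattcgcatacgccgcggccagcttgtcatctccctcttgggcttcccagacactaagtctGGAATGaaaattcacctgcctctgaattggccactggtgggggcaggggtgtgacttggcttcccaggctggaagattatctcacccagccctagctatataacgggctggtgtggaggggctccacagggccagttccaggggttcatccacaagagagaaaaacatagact

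The genes of the coactivators and of Tead3 also held the motif, and 20 bases around it are shown for each in the same orientation. The Yap1 match begins 141 bases before the start (chr9:8004725-8004744, minus strand), the Wwtr1 match 136 bases before (chr3:57576034-57576053, minus strand), and the Tead3 match 182 bases before the first of its annotated starts (chr17:28350975-28350994, minus strand). A second annotated Tead3 start had 3 further matches, 123 and 114 bases before and 3 bases after it. The letters TGANTCA, to which Fos and Jun dimers bind (any base at N, the same on both strands), and the CArG box bound by Srf were in none of the windows of the 8 genes, against 7.81% and 1.63% of all windows.
Yap1: gtctgcaGGAATGtagcgac
Wwtr1: actcaaaGGAATGcagatag
Tead3: cgagcgaGGAATGgggtgcg

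Between 9061491 and 12017008 counts fell on genes per library, and edgeR tested 16152 genes after removal of those with low counts. Adgrg6, which the files list as Gpr126 (chr10:14402583-14545659), was at 109 ± 14.7 CPM (counts scaled to the size of the library) in control and 122 ± 16.1 CPM in mutant libraries (SD, n = 3 each; log2 fold change 0.17, unadjusted p = 0.367 with edgeR), and counts over the whole gene check nothing of the part that Cre removes. Among marker genes, the summed level of 7 cartilage genes overlapped between the groups and no cartilage marker passed the test, and the nucleus pulposus markers T, Krt8, Krt18, Krt19, Cd24a and Shh were detected while Noto was too low to test. Control replicate 1 stood apart in 12 skeletal muscle markers, which summed to 4838 CPM there, 87.1 to 122 CPM in the other controls and 169 to 217 CPM in the mutants, and 10 of the 12 were lower in mutant libraries at an unadjusted p under 0.05. Tendon and outer annulus markers summed to 10656 to 26065 CPM in control and 23038 to 41089 CPM in mutant libraries, and 4 of 8 (Tnmd, Thbs4, Tnc and Col1a1) were higher. In pooled tissue, fewer cells of a type and less RNA per cell cannot be told apart.

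Of the 10 genes, 9 had enough counts to be tested and 3 were higher in mutant IVDs at an unadjusted p under 0.05: Tead2, Tead3 and Axl. None was lower. All 3 mutant libraries lay above all 3 controls for these same 3 genes and for no other gene of the 10, and none had all mutant libraries below. Over all genes tested, 7.21% passed in either direction, 2.89% higher and 4.32% lower, and the groups were apart in 5.45% (mutant above) and 5.96% (mutant below). The log2 fold changes of the 9 genes ranged from -0.21 to 0.85 with a median of 0.43, and 7 were above 0, beside a median of -0.01 and 7818 above 0 over all 16152 genes. None of the 9 reached an adjusted p under 0.05 with edgeR or with DESeq2, and over all genes 1 did with edgeR, which is 0.00619%. In DESeq2, where 6.07% of 26372 genes passed at an unadjusted p under 0.05, Tead2, Axl and Cyr61 were called and Tead3 was not. Of the 9, 5 passed without the filter on low counts (8.62% of 26418 genes), 6 passed without mutant replicate 2, Tead1 among them as lower (9.76% of 17095 genes), and 2 passed without mutant replicate 3 (5.1% of 17142 genes).

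**Figure D1:**
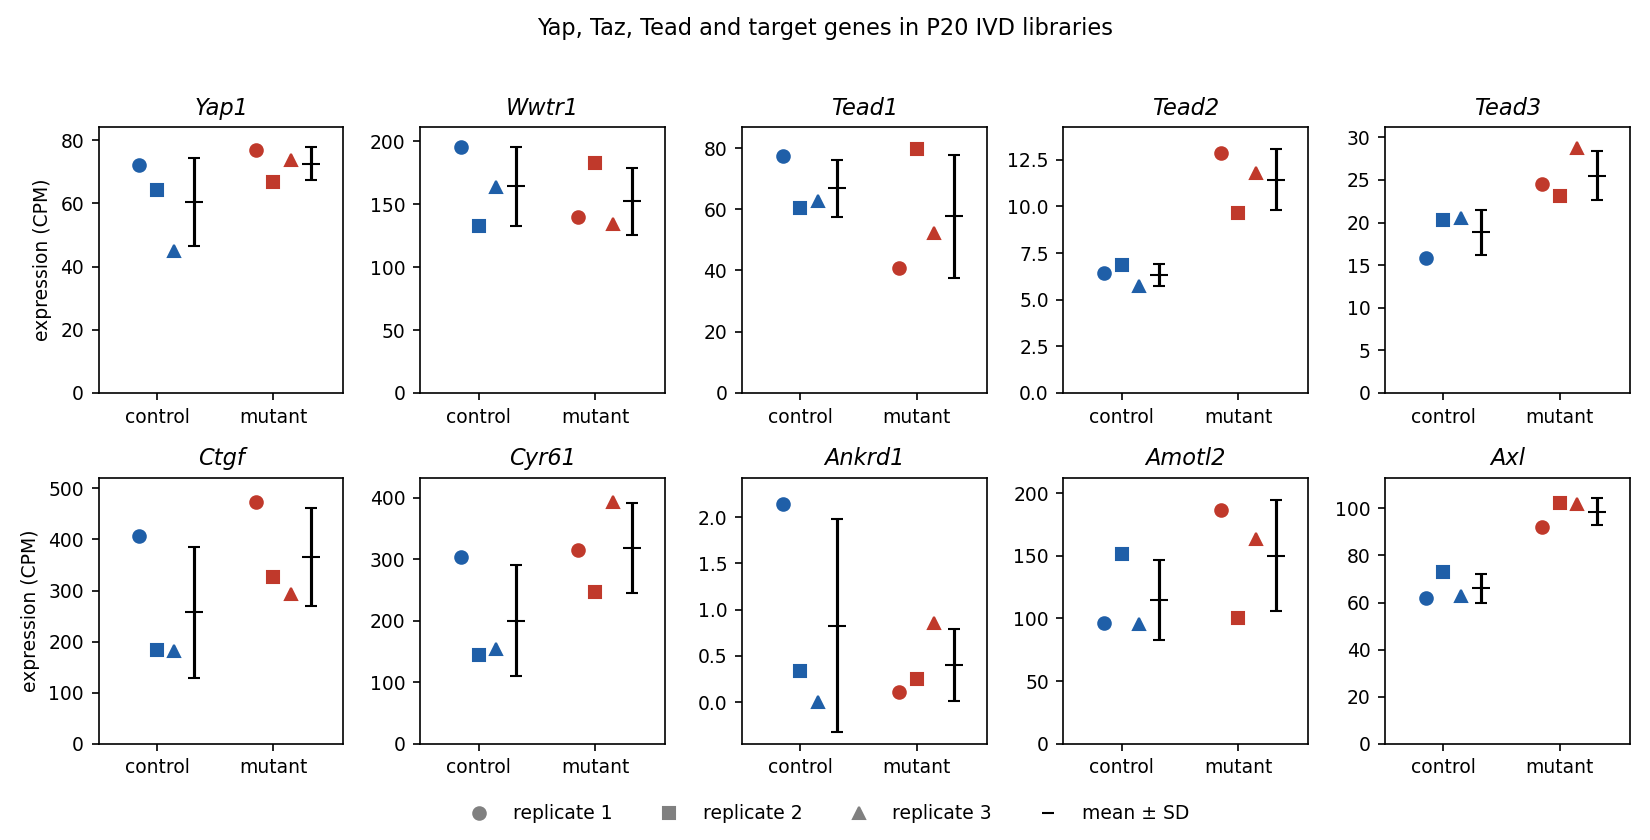
Expression in CPM (TMM-normalized) of the 10 genes in each of the 3 control and 3 mutant libraries, with the replicate number as the symbol and black bars for the mean ± SD. In Tead2, Tead3 and Axl every mutant library lies above every control, and in Ctgf, Cyr61 and Ankrd1 control replicate 1 lies above the other controls; the Ankrd1 axis extends below 0 only to hold the SD bar.

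Neither coactivator gene passed the test, and both overlapped between the genotypes. Yap1 (chr9:7931999-8004596, minus strand) was at 72.0, 64.4 and 45.1 CPM in control replicates 1, 2 and 3 and at 77.0, 66.9 and 73.8 CPM in mutant replicates 1, 2 and 3. Control replicate 3 was the lowest of the 6 and mutant replicate 1 the highest. Its log2 fold change was 0.26 with a 95% confidence interval of -0.17 to 0.70 (SE 0.20, unadjusted p = 0.208, adjusted p = 0.793 with edgeR), and was 0.098 without control replicate 3 and 0.43 without control replicate 1. Wwtr1 (chr3:57455649-57575910, minus strand), which encodes Taz, was at 196, 133 and 164 CPM in control and 140, 183 and 134 CPM in mutant libraries. The highest and the lowest values were both in control libraries. Its log2 fold change was -0.11 with an interval of -0.57 to 0.36 (SE 0.21, unadjusted p = 0.618, adjusted p = 0.930 with edgeR). Within a library, the log2 ratio of Yap1 to Wwtr1 counts was -1.44, -1.04 and -1.86 in control and -0.86, -1.45 and -0.86 in mutant libraries, which also overlapped. Yap1 shares 116 exon bases, 1.25% of its exons, with Gm20416 on the opposite strand, which had 145 counts in all.

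The Tead genes did not move as a group. Tead2 (chr7:45215753-45233644, plus strand) had the highest log2 fold change of the 9 tested genes with all libraries, and without control replicate 1 it was 0.88, below those of Cyr61 and Ctgf. It was at 6.42, 6.88 and 5.71 CPM in control and 12.9, 9.63 and 11.8 CPM in mutant libraries, from 60, 62 and 73 counts and 113, 118 and 111 counts. The 3 mutant libraries all lay above the controls, and the mean was 1.80-fold higher. This was a log2 fold change of 0.85 (SE 0.26, interval 0.27 to 1.43, unadjusted p = 0.00872, adjusted p = 0.676 with edgeR). Tead2 overlaps by 13 exon bases, 0.272% of its exons, with Cd37 on the other strand, a leukocyte gene with 181 counts in all against 537 for Tead2. Cd37 was at 1.39, 1.89 and 2.42 CPM in control and 7.28, 2.86 and 2.23 CPM in mutant libraries, so its highest library, mutant replicate 1, was also the highest of Tead2.

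Tead3 (chr17:28331671-28350817, minus strand) was higher by a smaller margin. Its levels were 15.8, 20.3 and 20.5 CPM in control and 24.6, 23.2 and 28.8 CPM in mutant libraries. All mutant libraries were above all controls, and the means were 18.9 ± 2.63 and 25.5 ± 2.92 CPM (SD, n = 3 each). The log2 fold change was 0.43 with an interval of 0.01 to 0.85 (SE 0.19, unadjusted p = 0.0451, adjusted p = 0.691 with edgeR). The call was lost without control replicate 1 (log2 fold change 0.34, unadjusted p = 0.129), without control replicate 2 (0.48, unadjusted p = 0.0622), without mutant replicate 3 (0.34, unadjusted p = 0.148), and in DESeq2 (0.45, unadjusted p = 0.0754).

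Tead1 (chr7:112679318-112906807, plus strand), a broadly expressed Tead gene, was at 77.5, 60.4 and 62.8 CPM in control and 40.9, 79.8 and 52.4 CPM in mutant libraries. Mutant replicates 1 and 3 were below every control, and mutant replicate 2 above every control. Its log2 fold change was -0.21 with an interval of -0.75 to 0.32 (SE 0.24, unadjusted p = 0.401, adjusted p = 0.857 with edgeR), and it depended on single libraries. Without mutant replicate 2 Tead1 passed as lower (-0.51, unadjusted p = 0.0338 with edgeR), and without mutant replicate 1 the value was 0.019 (unadjusted p = 0.936). Tead4 (chr6:128224288-128300823, minus strand), the remaining Tead gene, was at 9.11 ± 1.41 CPM in control and 8.41 ± 1.79 CPM in mutant libraries (SD, n = 3 each) and was not called (-0.11, SE 0.28, unadjusted p = 0.693).

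The make-up of Tead transcripts was then compared within each library, as counts per kb of exon, which removes the scaling between libraries. Tead2 made up 11.2%, 13.0% and 10.1% of the 4 Tead genes in control and 24.1%, 14.2% and 18.9% in mutant libraries. The share was thus higher in all 3 mutant libraries, with a mean of 11.4 ± 1.47% in control and 19.1 ± 4.92% in mutant libraries. Tead1 made up the largest share in every control (39.3% to 47.7%), and in mutant replicates 1 and 3 it lay below Tead3, at 27.0% and 29.6% beside 32.8% and 32.9%. Mutant replicate 2 had the make-up of a control but for Tead2, with Tead1 at 41.6% and Tead3 at 24.4%. The shares of Tead1, Tead3 and Tead4 overlapped between the genotypes.

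**Figure D2:**
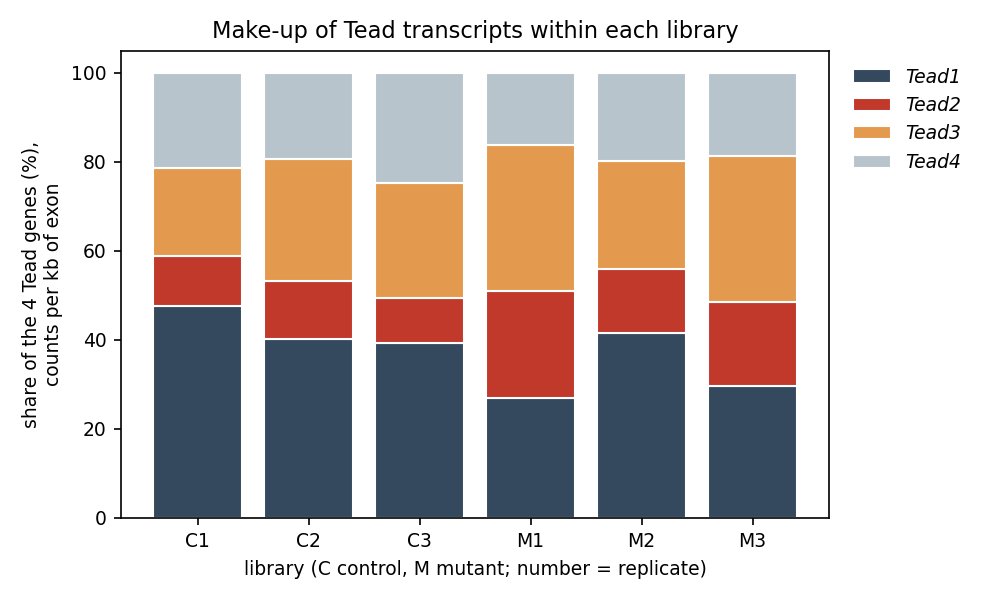
Share of each Tead gene among the 4 Tead genes, in percent of counts per kb of exon, for control (C) and mutant (M) libraries numbered by replicate. The Tead2 share is 10.1% to 13.0% in the controls and 14.2% to 24.1% in the mutants.

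Among the targets, Axl (chr7:25757273-25788705, minus strand) was higher in mutant IVDs with the least spread. It was at 62.0, 73.1 and 62.9 CPM in control libraries and 92.1, 102 and 102 CPM in mutant libraries, from 579 to 1252 counts. All mutant libraries were above all controls, and the mean rose from 66.0 ± 6.14 to 98.7 ± 5.72 CPM, 1.50-fold. In edgeR the log2 fold change was 0.58 (SE 0.16, interval 0.22 to 0.94, unadjusted p = 0.00463, adjusted p = 0.657 with edgeR). Axl and Tead2 passed the unadjusted threshold in all 10 alternatives tried, with log2 fold changes of 0.56 to 0.67 and 0.78 to 0.98 and adjusted p-values of 0.158 to 0.999 and 0.220 to 0.999. Macrophages are another known source of Axl. Of 9 macrophage markers, Cd68 alone was higher at an unadjusted p under 0.05, while 7 had a log2 fold change above 0 (median 0.35). The 9 summed to 68.6 to 102 CPM in control and 80.1 to 163 CPM in mutant libraries. Axl was lowest of the mutants in replicate 1, where these markers summed highest, but it differed little between the mutants (92.1 to 102 CPM). Pericyte and smooth muscle markers were apart, at 199 to 235 CPM and 246 to 318 CPM in sum, with 1 of 6 higher (Mcam), and endothelial markers overlapped at 167 to 312 and 252 to 289 CPM, with none of 8 called. Tendon and outer annulus markers overlapped in sum, with 4 of 8 higher and a median log2 fold change of 0.91. The part of any of these in the Axl result was not tested.

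Ctgf and Cyr61, the canonical secreted targets, were high in the mutants and in 1 control. Ctgf (chr10:24595442-24598683, plus strand) was at 406, 184 and 181 CPM in control and 474, 327 and 294 CPM in mutant libraries. Control replicate 1 was above mutant replicates 2 and 3, while the other 2 controls were below every mutant library. Its log2 fold change was 0.51 with an interval of -0.23 to 1.24 (SE 0.33, unadjusted p = 0.156, adjusted p = 0.779 with edgeR). Cyr61 (chr3:145646976-145649981, minus strand) was at 304, 144 and 153 CPM in control and 315, 246 and 394 CPM in mutant libraries. Here control replicate 1 exceeded mutant replicate 2 alone. The log2 fold change was 0.67 with an interval of -0.01 to 1.35 (SE 0.30, unadjusted p = 0.0529, adjusted p = 0.691 with edgeR).

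Control replicate 1 is the library with the raised muscle markers, and both values moved most when it was left out. Without it the log2 fold change of Ctgf was 1.02 (unadjusted p = 0.00195, adjusted p = 0.102 with edgeR) and that of Cyr61 1.12 (unadjusted p = 0.000768, adjusted p = 0.0785 with edgeR). Of all genes, 14.1% passed at an unadjusted p under 0.05 in that fit, against 7.21% with all libraries. Leaving out other libraries moved the values either way. Ctgf was raised to 0.59 and 0.64 without mutant replicates 2 and 3 (unadjusted p = 0.154 and 0.127 with edgeR). Cyr61 was raised to 0.71 without mutant replicate 1 (unadjusted p = 0.0809 with edgeR). Ctgf was at 0.30 without mutant replicate 1 and 0.31 without control replicate 2 or 3 (unadjusted p = 0.422, 0.402 and 0.395 with edgeR). Cyr61 was lowest without control replicate 2 (0.47, unadjusted p = 0.177 with edgeR). Some calls were made with control replicate 1 kept: Cyr61 passed in DESeq2 (0.68, unadjusted p = 0.0121), without mutant replicate 2 (0.83, unadjusted p = 0.0321) and without the filter on low counts (unadjusted p = 0.00770), and Ctgf without that filter (unadjusted p = 0.0471). Markers of 4 other tissues or cell types were also higher in control replicate 1 than in the other controls, and higher in each mutant library than in control replicates 2 and 3, as Ctgf and Cyr61 were. Endothelial markers summed to 312, 167 and 193 CPM in control and 252, 280 and 289 CPM in mutant libraries, and pericyte and smooth muscle markers to 235, 219 and 199 CPM and 318, 246 and 277 CPM. Tendon and outer annulus markers summed to 26065, 18556 and 10656 CPM in control and 23038, 41089 and 36693 CPM in mutant libraries, and red blood cell markers to 343, 39.6 and 99.98 CPM in control and 276, 450 and 213 CPM in mutant libraries. Immediate early genes, described below, had this order too. They summed to 699, 504 and 538 CPM in control and 1789, 803 and 971 CPM in mutant libraries. The part of muscle, of any of these 4 or of the immediate early genes in the levels of Ctgf and Cyr61 was not tested.

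Ctgf shares 665 exon bases, 23.2% of its exons, with Gm15270, a gene on the opposite strand. The strand setting of the counting is not given in the sources used here, so reads from the shared stretch may have gone to either gene or to neither. Gm15270 was at 177, 97.0 and 84.4 CPM in control and 311, 127 and 147 CPM in mutant libraries, and its order over the libraries was close to that of Ctgf, with mutant replicate 1 and control replicate 1 the highest in both. The log2 ratio of Ctgf to Gm15270 counts was 1.20, 0.93 and 1.10 in control and 0.61, 1.36 and 0.99 in mutant libraries, which overlapped. The Ctgf level is thus uncertain in a way that Cyr61, which shares exon bases with no opposite-strand gene of the annotation, is not.

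Ankrd1 (chr19:36111961-36120099, minus strand) was close to silent. It had 20, 3 and 0 counts in control and 1, 3 and 8 counts in mutant libraries, 35 in all, and was removed by the filter on low counts. Of the 23 control counts, 20 came from the library with the raised muscle markers. The mean CPM was lower in mutant libraries by 0.42, and without control replicate 1 it was higher by 0.236, so no direction can be read.

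**Figure D3:**
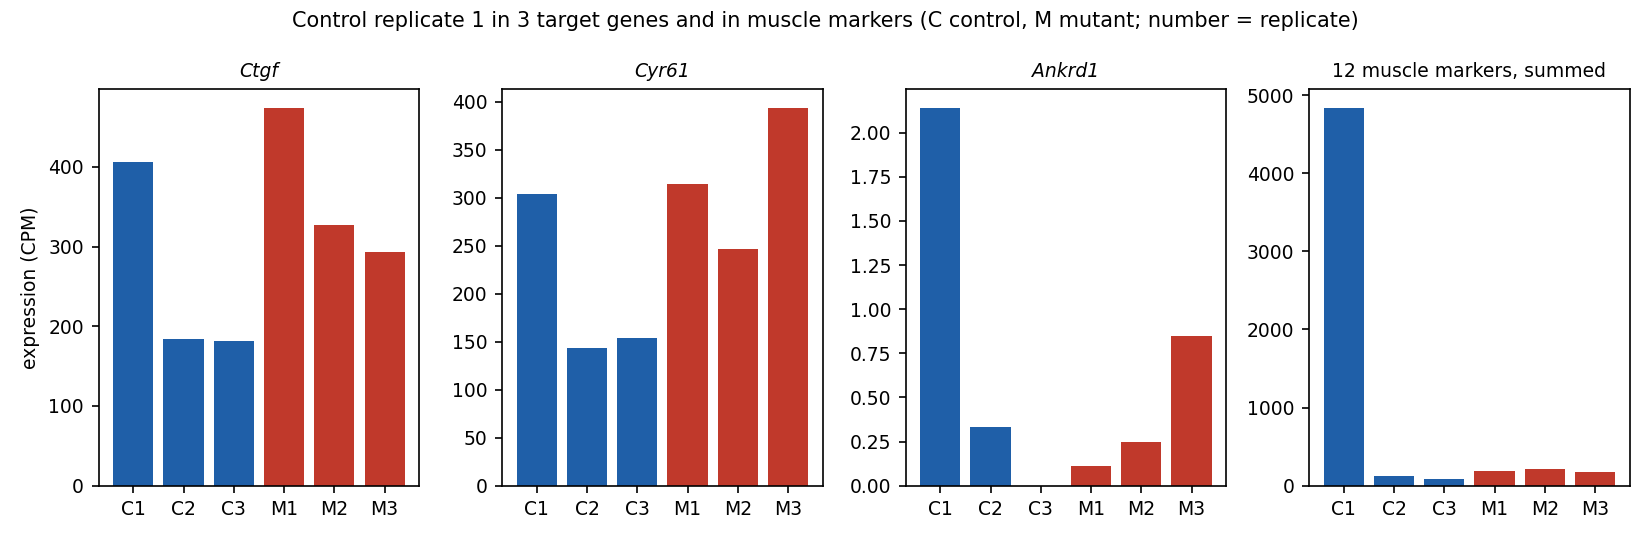
Expression in CPM of Ctgf, Cyr61, Ankrd1 and the sum of 12 skeletal muscle markers in each library (C control, M mutant, numbered by replicate; 1 bar per library). Control replicate 1 is the highest control in all 4 panels, at 406, 304, 2.14 and 4838 CPM.

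Amotl2 (chr9:102716672-102733418, plus strand) was at 96.5, 151 and 95.8 CPM in control and 187, 101 and 164 CPM in mutant libraries. Control replicate 2 lay above mutant replicate 2, and otherwise the mutants were higher. The log2 fold change was 0.39 with an interval of -0.21 to 0.99 (SE 0.27, unadjusted p = 0.176, adjusted p = 0.784 with edgeR). It passed at an unadjusted p under 0.05 without control replicate 2 (0.63, unadjusted p = 0.0443) and without mutant replicate 2 (0.63, unadjusted p = 0.0301). Without mutant replicate 1 or control replicate 3, Amotl2 was at 0.24 and 0.28 (unadjusted p = 0.422 and 0.379 with edgeR). Its relatives Amot and Amotl1, which bind Yap in the same way, were not called, at log2 fold changes of -0.94 (SE 0.56, unadjusted p = 0.124) and 0.15 (SE 0.21, unadjusted p = 0.506). Without mutant replicate 1, Amot passed as lower (-1.72, unadjusted p = 0.0119 with edgeR), and over all libraries left out in turn its value ranged from -1.72 to -0.63.

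**Figure D4:**
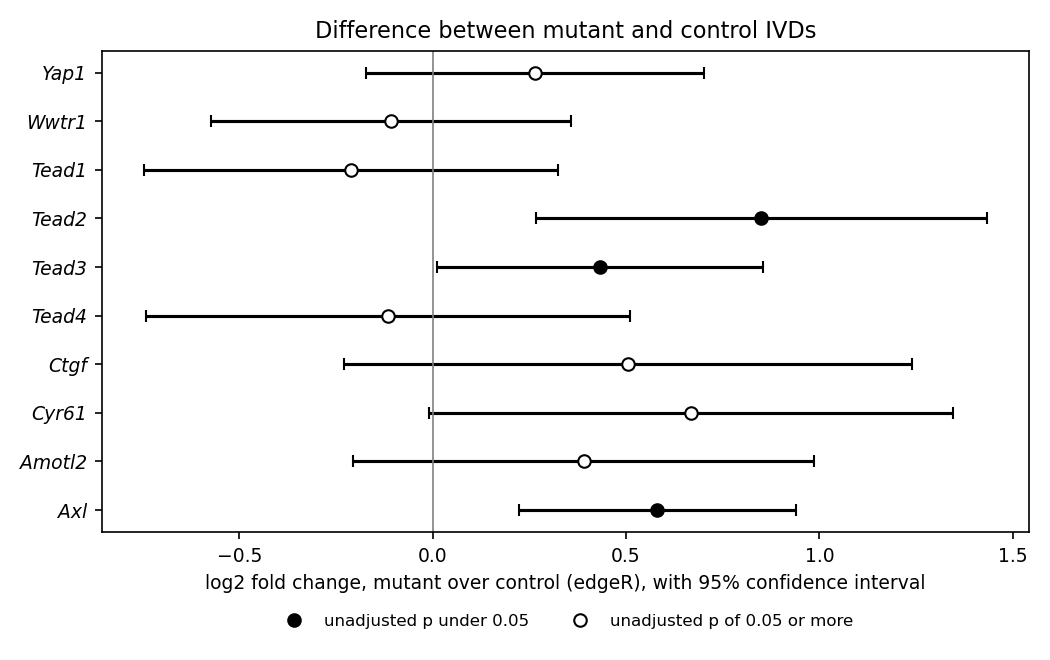
Log2 fold change of mutant over control with its 95% confidence interval (edgeR) for the 9 tested genes and Tead4. Filled points mark an unadjusted p under 0.05, and the intervals of Tead2, Tead3 and Axl alone lie above 0.

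Levels of different genes were compared as CPM per kb of exon. In control libraries the order from high to low was Cyr61 (99.2 ± 44.5), Ctgf (89.9 ± 45.1), Wwtr1 (34.3 ± 6.61), Amotl2 (18.2 ± 5.08), Axl (13.1 ± 1.22), Yap1 (6.54 ± 1.50), Tead1 (4.93 ± 0.682), Tead3 (2.81 ± 0.392) and Tead2 (1.32 ± 0.124, CPM per kb, mean ± SD, n = 3). The libraries of Cyr61 and Ctgf overlapped, as did those of Yap1 and Tead1, and Amotl2 and Axl differed by about the SD of Amotl2. Within each control library, Cyr61 nevertheless lay above Ctgf, at 151, 71.2 and 76.0 against 142, 64.5 and 63.3 CPM per kb. Yap1 likewise lay above Tead1 in each, at 7.78, 6.96 and 4.87 against 5.71, 4.45 and 4.63 CPM per kb, and Amotl2 above Axl. In mutant libraries the order was the same, with Cyr61 at 158 ± 36.5, Ctgf at 128 ± 33.5 and Tead2 at 2.39 ± 0.344 CPM per kb. There Cyr61 overlapped with Ctgf, Wwtr1 with Amotl2, Amotl2 with Axl and Tead1 with Tead3, and none of these pairs had the same order in every mutant library. Thus Taz transcripts were more abundant per length than those of Yap1 in both genotypes, and Tead2 was the least abundant of the 9 tested genes in both.

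Of 22 genes upstream of Yap and Taz, 1 passed the test, Ptpn14, beside 7.21% of all genes tested. None of the 11 Hippo kinases and adaptors, which include Stk3, Stk4, Sav1 and Lats1, was called, and their median log2 fold change was 0.14 (range -0.30 to 0.34). Taok2, the highest expressed of them, was at 137 ± 17.8 CPM in control and 152 ± 26.1 CPM in mutant libraries (0.14, SE 0.20, unadjusted p = 0.486). Of 11 upstream scaffolds, Ptpn14, a phosphatase gene whose product binds Yap, was higher (0.47, SE 0.20, unadjusted p = 0.0393 with edgeR), and the median was 0.15. That call was lost without control replicate 2 (unadjusted p = 0.0908), control replicate 3 (0.142), mutant replicate 1 (0.0853) or mutant replicate 2 (0.0737). Of the Vgll genes, whose proteins compete with Yap for Tead, Vgll4 was tested and had a log2 fold change of -0.03 (SE 0.23, unadjusted p = 0.915), and Vgll1, Vgll2 and Vgll3 had too few counts to test.

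Other reported targets of Yap and Taz were mixed. Over all genes tested, 2.89% were higher and 4.32% lower at an unadjusted p under 0.05 with edgeR. Of the 17 targets, 3 were higher at that threshold and 2 were lower, with a median log2 fold change of 0.09. The higher ones were Igfbp3, an insulin-like growth factor binding protein (0.60, SE 0.25, unadjusted p = 0.0345), Ptpn14, which also counts among the scaffolds, and Myof, a membrane repair protein (0.40, SE 0.17, unadjusted p = 0.0458). The lower ones were the matrix protein gene Ccdc80, the highest expressed of the list (-0.53, SE 0.18, unadjusted p = 0.0122), and the growth factor gene Tgfb2 (-0.51, SE 0.19, unadjusted p = 0.0227). Ccdc80 passed with any 1 library left out. In the same fits, Igfbp3 did not pass without control replicates 2 or 3 or mutant replicate 1 (0.32, unadjusted p = 0.163, without the last), Tgfb2 passed only without control replicate 2 or mutant replicate 2, and Myof only without control replicate 1. The 4 other Ccn genes, relatives of Ctgf and Cyr61, went apart. Nov, which passed with any library left out, was higher (1.03, SE 0.24, unadjusted p = 0.00180), Wisp2 was lower (-0.71, SE 0.25, unadjusted p = 0.0175), and Wisp1 (0.31, unadjusted p = 0.282) and Wisp3 (-0.62, unadjusted p = 0.112) did not pass. Wisp2 lost its call without control replicate 2 (unadjusted p = 0.0522), control replicate 3 (0.0885) or mutant replicate 2 (0.0627). Without control replicate 1, where 14.1% of all genes passed, Wisp1 (0.62, unadjusted p = 0.0436) and Wisp3 (-0.91, unadjusted p = 0.00919) passed in edgeR. Wisp1 was at 0.089 without mutant replicate 2 (unadjusted p = 0.766), and Wisp3 at -0.26 without control replicate 2 (unadjusted p = 0.487, both with edgeR).

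The Tam receptors and their ligands were compared beside Axl. Gas6, the ligand of Axl, was at 113, 134 and 95.5 CPM in control and 158, 156 and 178 CPM in mutant libraries. It was higher in all 3 mutant libraries than in any control (log2 fold change 0.52, SE 0.19, unadjusted p = 0.0183, adjusted p = 0.676 with edgeR). The call was lost without control replicate 3 (0.42, unadjusted p = 0.0700) and without mutant replicate 3 (0.46, unadjusted p = 0.0638). The other receptors, Tyro3 (-0.07, unadjusted p = 0.772) and Mertk (-0.21, unadjusted p = 0.402), and the ligand Pros1 (-0.08, unadjusted p = 0.642) were not called. Axl was thus the only Tam receptor of the 3 called, but whether it differed from Tyro3 or Mertk in its response was not tested.

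Actin and Srf targets are regulated by a pathway that also responds to tension. Of 11, Flna, an actin crosslinker, was higher (0.46, SE 0.19, unadjusted p = 0.0394 with edgeR), and the median was 0.27. Flna did not pass without control replicates 2 or 3 or mutant replicates 1 or 3 (highest unadjusted p = 0.140). Tpm1 had the highest mean CPM of the list through control replicate 1 (404 CPM), and in the other 5 libraries Flna was higher (175 to 291 against 146 to 223 CPM). Immediate early genes, which respond within minutes to growth factors, stress and handling of tissue, had the highest median of the pathway lists. Over all genes tested, 2.89% were higher and 4.32% lower. Of the 16 immediate early genes, 13 were higher, none was lower, and the median was 0.86. They were Fosb (2.45), Fos (1.95), Egr1 (1.94), Zfp36 (1.69), Junb (1.27), Jun (1.19), Btg2 (0.87), Ier2 (0.86), Atf3 (0.76), Fosl2 (0.75), Ier3 (0.70), Dusp1 (0.54) and Nr4a1 (0.36, all as log2 fold changes). Their sum was 504 to 699 CPM in control and 803 to 1789 CPM in mutant libraries, with mutant replicate 1 the highest. That library also had the most reads not aligned (18.9%, against at most 15.2% in the others) and the highest sum of neutrophil precursor markers (153 CPM, against 16.2 to 59.3 CPM), and the part of either was not tested. Without mutant replicate 1 only 7 of the 16 passed. The log2 fold changes without that library were 1.14 for Fosb, 0.97 for Fos, 0.92 for Egr1 (unadjusted p = 0.0607), 1.16 for Zfp36, 0.21 for Junb (unadjusted p = 0.268), 0.94 for Jun and 0.27 for Ier2 (unadjusted p = 0.190). Fewer also passed without control replicate 2 (8) or control replicate 3 (9). Over all genes, 817 passed without mutant replicate 1, 929 without control replicate 2 and 618 without control replicate 3, against 1164 with all libraries. Of the 10 alternatives, Nr4a1 passed in 2, Junb and Ier2 in 5, Ier3 in 6, Dusp1 in 7 and Egr1 in 9. Ctgf and Cyr61 are themselves induced quickly in this way in many cells. Mutant replicate 1 was the highest library of Ctgf but not of Cyr61. Control replicate 1 was the highest control of both genes and of the summed immediate early genes (699 CPM, against 504 and 538 CPM). The part of that response in their levels was not tested.

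**Figure D5:**
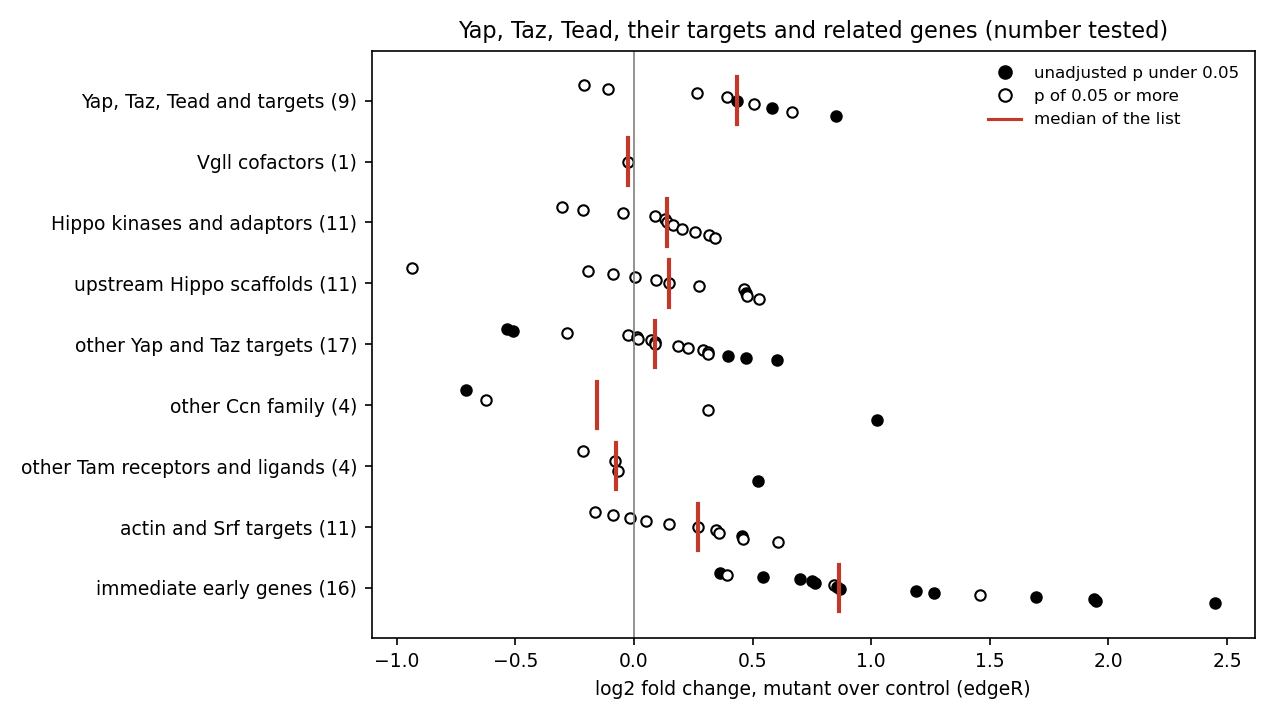
Log2 fold change of mutant over control (edgeR) of each tested gene of the 9 lists named on the left, with the number tested in brackets. Filled points mark an unadjusted p under 0.05 and red lines the median; 13 of 16 immediate early genes are filled, and none of 11 Hippo kinases and adaptors.

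The genes whose pattern over the 6 libraries was most like that of a target were sought among 9962 genes, by the root mean square difference of log2 CPM after centring each gene on its own mean. For Ctgf these were Tsc22d3 (0.102), Gpd1l (0.106) and Tnn (0.118). For Cyr61 they were Cdr2l (0.144), Il4ra (0.152) and Myh9 (0.155), and for Axl Galnt16 (0.0540), E430025E21Rik (0.0540) and Pax9 (0.0794). Ctgf and Cyr61 differed from each other by 0.325, which put Cyr61 at place 314 for Ctgf and Ctgf at place 203 for Cyr61. For Axl, Tead3 was at place 75 (0.157), Yap1 at 1337, Amotl2 at 4225, Wwtr1 at 6946, Cyr61 at 7355, Ctgf at 8314 and Tead1 at 8537. For Ctgf and Cyr61, Yap1 was at places 664 and 670, Axl at 3709 and 1885, Tead3 at 5830 and 3202, Amotl2 at 6212 and 4984, Wwtr1 at 4023 and 5474 and Tead1 at 8045 and 8371. Tead2 was too low on average to be ranked. All 6 points of such a comparison share the same libraries, and the ranks are a description.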

How the data were processed

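Poly(A) RNA of P20 IVDs was sequenced in 6 libraries, 3 mutant and 3 control pools. Per the files' closing lines and the submitters' processing notes, which name STAR 2.5.3a, HTSeq and DESeq2 with mm10 and GRCm38, the authors deposited raw counts per gene symbol and library; the study's methods describe Cutadapt, HISAT2, StringTie and Ballgown instead. The strand setting is not given in the sources used here. Rows that name no gene held 55.8% to 59.6% of reads and were left out. A deposited table of the authors' own comparison, with fold changes and p-values, was not used, and 0 unmapped columns remained. Reads carry no molecular identifiers, and standard errors rest on the variation between 3 pools per genotype.

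Counts were tested with edgeR 4.0.16 in R 4.3.3: TMM normalization, filterByExpr with a count minimum of 10, the quasi-likelihood test and Benjamini-Hochberg adjustment over 16152 genes, checked on simulated data. CPM used TMM-normalized library sizes. The SE was the log2 fold change over the square root of F. Exon lengths and coordinates are of GENCODE M21 on GRCm38. The threshold was an unadjusted p under 0.05. All 10 genes are named, with Adgrg6, list genes past the threshold, the highest expressed of a list and direct relatives of the 10 genes, and 3 most alike genes for each of Ctgf, Cyr61 and Axl (mean CPM of at least 10). The genes and lists were chosen with earlier results of these data known. Alternatives were RLE size factors, no filter, a replicate block, leaving out 1 library at a time, and DESeq2 1.42.0. Markers of osteoblasts (2 of 6 higher, 1 lower), red blood cells (1 of 7 higher) and neutrophil precursors (2 of 8 higher) were also compared.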

Additional observations from a re-analysis of the deposited data

How the results depend on the processing

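Axl and Tead2 kept their direction and their unadjusted call in all 10 alternatives, and no tested gene of the 10 passed an adjusted p under 0.05 in any. Genes at an unadjusted p under 0.05 numbered 1164 and were 2276 without the filter on low counts (8.62% of 26418) and 618 to 2427 with 1 library left out, lowest without control replicate 3 and highest without control replicate 1. At an adjusted p they numbered 1, and were 245 without the filter, 0 with the replicate block, 52 with DESeq2 and 0 to 31 with 1 library left out. Of the 9 tested genes 5 passed without the filter and 2 to 6 with 1 library left out, where 6 was without mutant replicate 2, in which 1669 genes (9.76%) passed. For Ctgf (unadjusted p = 0.0471) and Cyr61 (unadjusted p = 0.00770) the call appeared without the filter. Of the kinases, scaffolds and Vgll genes 1 passed, with 2 without the filter, 2 with DESeq2 and 0 to 3 with 1 library left out. Of other Yap and Taz targets 5 passed, with 3 in DESeq2 and 1 to 5 with 1 library left out. Of actin and Srf targets 1 passed, with 3 without the filter, 0 with the block, 3 in DESeq2 and 0 to 3 with 1 library left out. Of immediate early genes 13 passed, and 7 to 13 with 1 library left out. Log2 fold changes that turned sign with 1 library left out ranged from -0.25 to 0.060 (Wwtr1), -0.51 to 0.019 (Tead1), -0.25 to 0.076 (Tead4), -0.0035 to 0.37 (Amotl1), -0.25 to 0.10 (Tyro3), -0.45 to 0.045 (Mertk), -0.17 to 0.29 (Vgll4) and -0.42 to 0.47 (Tpm1), and the mean CPM difference of Ankrd1, an alternative chosen after seeing the data, from -0.834 to 0.236. The causes were not tested. Same-numbered control and mutant libraries correlated in their deviations at 0.16, -0.13 and 0.10, and differently numbered ones at -0.26 to 0.18. With 3 libraries per genotype, these values cannot decide whether the numbers pair the samples. With the replicate block in edgeR, 1002 genes passed unadjusted. Ctgf (0.58, unadjusted p = 0.0252 with edgeR) and Cyr61 (unadjusted p = 0.0250 with edgeR) passed in that fit. Tead3 did not pass with the block (unadjusted p = 0.0676 with edgeR), and Vgll4 and Tpm1 turned to 0.017 and 0.0026. Counts of 35 in all limit Ankrd1.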
